A study of Mus musculus with 16 samples.

Results

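The autosomal H3K9me3 profiles of H2A.B knockout (KO) and wild-type (WT) spermatids make up 4 of the 16 libraries of this mouse series, chosen by the antibody named in their labels, Abcam ab8898. There were 2 KO and 2 WT libraries. The KO animals were hemizygous males of a single CRISPR line, made in B6;SJLF1/J zygotes and backcrossed to C57BL/6J, in which all 3 X-linked H2A.B genes are mutated. The WT animals were their male siblings. All were 2 months old and had not been mated, and live haploid spermatids were sorted from their testes by Hoechst and propidium iodide. AutoCUT&RUN, in which an antibody tethers micrococcal nuclease to chromatin and the released DNA is sequenced from both ends, was run on 2 sibling pairs, and the replicate number in the labels was taken as the pair. The labels also give each replicate number a date of its own, so pair and date cannot be told apart. The other 12 libraries, 4 each for IgG, H3K4me3, and H3K27me3 on the same animals, were used only as background.

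Trimethylation of lysine 9 on histone H3 marks constitutive heterochromatin. It is written by SUV39H and SETDB1 enzymes and bound by HP1 proteins, which keep repeats and some gene clusters compact and silent. In mouse, it is known above all from the satellite repeats beside the centromeres and from transposons, imprinted regions, and arrays of zinc finger, olfactory, and vomeronasal receptor genes. In spermatids, histones are later replaced by protamines, and H2A.B is a short histone variant of the male germ line whose nucleosomes wrap less DNA.

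The H3K9me3 libraries held 3963850 (KO replicate 1), 3342377 (KO replicate 2), 3761745 (WT replicate 1), and 3136799 (WT replicate 2) distinct autosomal fragments, where fragments of a library with the same chromosome, start, and end count as 1. Between 42.6% and 46.7% of the autosomal lines deposited for these libraries were further copies of a fragment already listed. The IgG libraries held only 140181 to 236269 distinct autosomal fragments, so background values rest on little sequence. The H2A.B genes could not serve as a check, since 2 to 7 fragments of each H3K9me3 library overlapped the 3 genes together. By H3K4me3 within 1 kb of the start site, the 8 spermatid markers had a median of 14.9 fragments per 1000000 autosomal fragments (FPM), from 1.66 at Prm1 to 25.3 at Odf1. The 4 Sertoli cell markers had a median of 0.261, the 4 Leydig cell markers 0.216, and the 2 leukocyte markers 0.492. Meiotic markers stood at a median of 6.47, with Sycp3 at 17.7 and Stra8 at 0.553. The 4 spermatogonial markers had a median of 1.98, with Etv5 highest at 7.25, and their summed level was 11.2 and 6.81 in KO and 19.8 and 7.83 in WT. The highest spermatogonial sum was thus in WT replicate 1. Summed spermatid markers had 129 and 146 in KO and 94.6 and 123 in WT, and meiotic markers 33.7 and 35.3 against 21.2 and 34.8. Both were lowest in WT replicate 1. The part of these differences in the results was not tested. In sorted cells measured in bulk, fewer marked cells and less mark per cell cannot be told apart.

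The autosomes were divided into 246285 bins of 10 kb, and fragments were placed by their midpoint. The 6 densest bins are shown first by sequence, because they hold the largest share of the signal. Of these, 4 adjoin at the start of the assembled chromosome 9, at chr9:3000001-3040000, where the sequence repeats every 234 bp with 66.6% to 76.5% of bases identical from 1 copy to the next. That period is the unit of the mouse major satellite, the repeat of the pericentromere. Printed here are 234-bp stretches from that array, from the bin at chr2:98660001-98670000, and from the bin at chr14:19410001-19420000. Each was taken where fragments piled up most within its bin. For the array the bin used was the last, chr9:3030001-3040000, the sparsest of its 4 bins with a mean of 30976 FPM. Then follow the 300-bp windows that held most fragments in the bins ranked 7, 9, and 10. Capitals mark bases that lie in a 12-base word also found, on either strand, in the chromosome 9 array, and lower case the other bases. All are on the + strand of mm10 (GRCm38).
chr9:3034663-3034896: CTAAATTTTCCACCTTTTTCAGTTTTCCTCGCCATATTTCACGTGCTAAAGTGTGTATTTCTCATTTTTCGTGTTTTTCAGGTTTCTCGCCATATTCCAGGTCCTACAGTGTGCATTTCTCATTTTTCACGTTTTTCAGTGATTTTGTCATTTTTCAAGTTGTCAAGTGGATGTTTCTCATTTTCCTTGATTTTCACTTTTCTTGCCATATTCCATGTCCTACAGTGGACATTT
chr2:98666782-98667015: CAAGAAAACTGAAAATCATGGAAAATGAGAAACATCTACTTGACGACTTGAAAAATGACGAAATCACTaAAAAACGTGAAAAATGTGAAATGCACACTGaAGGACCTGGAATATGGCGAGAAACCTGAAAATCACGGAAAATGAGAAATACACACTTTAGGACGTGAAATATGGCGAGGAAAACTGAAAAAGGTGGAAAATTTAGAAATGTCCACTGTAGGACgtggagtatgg
chr14:19417365-19417598: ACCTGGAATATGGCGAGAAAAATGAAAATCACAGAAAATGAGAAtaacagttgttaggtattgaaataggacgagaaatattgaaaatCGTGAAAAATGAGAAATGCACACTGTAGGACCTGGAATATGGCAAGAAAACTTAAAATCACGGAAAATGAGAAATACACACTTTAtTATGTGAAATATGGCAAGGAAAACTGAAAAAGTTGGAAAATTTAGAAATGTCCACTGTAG
chr9:35305272-35305571: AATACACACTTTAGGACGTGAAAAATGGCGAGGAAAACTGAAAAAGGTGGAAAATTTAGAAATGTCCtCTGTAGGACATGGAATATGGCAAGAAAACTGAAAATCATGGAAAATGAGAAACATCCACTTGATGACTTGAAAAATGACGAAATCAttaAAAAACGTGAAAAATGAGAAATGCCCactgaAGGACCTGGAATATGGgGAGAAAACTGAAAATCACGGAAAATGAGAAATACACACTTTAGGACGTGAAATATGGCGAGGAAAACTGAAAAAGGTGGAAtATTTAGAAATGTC
chr6:103648982-103649281: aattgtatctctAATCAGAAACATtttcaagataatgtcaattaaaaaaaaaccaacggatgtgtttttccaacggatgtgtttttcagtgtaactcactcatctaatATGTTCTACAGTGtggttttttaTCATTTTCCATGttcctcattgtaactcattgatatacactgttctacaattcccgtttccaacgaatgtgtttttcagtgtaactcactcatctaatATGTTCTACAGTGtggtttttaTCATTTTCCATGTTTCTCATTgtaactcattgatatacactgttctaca
chr10:3113419-3113718: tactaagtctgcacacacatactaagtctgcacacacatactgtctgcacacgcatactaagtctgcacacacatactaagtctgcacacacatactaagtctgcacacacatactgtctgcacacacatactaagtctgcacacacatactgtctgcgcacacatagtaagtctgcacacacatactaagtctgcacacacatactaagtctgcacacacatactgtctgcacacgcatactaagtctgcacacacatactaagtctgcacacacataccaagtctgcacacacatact

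The stretch on chromosome 2 shared 221 of its 234 bases with words of the chromosome 9 array and lies in an exon of Gm10800 (- strand). The stretch on chromosome 14 shared 189 bases and lies in Gm21738 (- strand), with 2 of its bases exonic. The chromosome 9 stretch itself lies in Gm17535 (+ strand), with 230 exonic bases, and across an antisense transcript, Gm26870. These gene models sit on satellite sequence, and reads of such copies cannot be assigned to a single position.

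These satellite bins took up a mean of 20.6% of all distinct autosomal fragments. Their share was 19.4% and 24.1% in the KO libraries and 18.3% and 20.7% in the WT libraries. In each sibling pair the KO share was the higher, by 1.04 and 3.49 percentage points, but KO replicate 1 lay below WT replicate 2. When every deposited copy was counted, the shares were 43.2% and 49.5% in KO and 36.9% and 39.5% in WT. Here both KO libraries lay above both WT libraries, by 0.23 and 0.33 on the log2 scale within the pairs. The same bins held 19.7%, 8.02%, 13.4%, and 10.5% of distinct IgG fragments in KO replicates 1 and 2 and WT replicates 1 and 2. IgG thus gathered there as well, and in KO replicate 1 its share was above that of H3K9me3, while in the other 3 animals it was below. With every copy, IgG had 3.12% to 7.23% in them. In H3K4me3 libraries they held 0.650% to 2.05% of distinct fragments, and in H3K27me3 libraries 1.16% to 6.80%.

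Counting positions once limits what an array can show, since the number of distinct positions in 10 kb is finite. In the 6 bins each distinct fragment was listed 3.55 to 3.88 times per library, and in the chromosome 2 bin 8.69 to 9.48 times. In the rest of the autosomes it was listed 1.23 and 1.18 times in KO and 1.45 and 1.41 times in WT. Copies made in amplification and separate molecules cut at the same positions cannot be told apart in these lists, and their part in the KO and WT values was not tested.

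**Figure D1:**
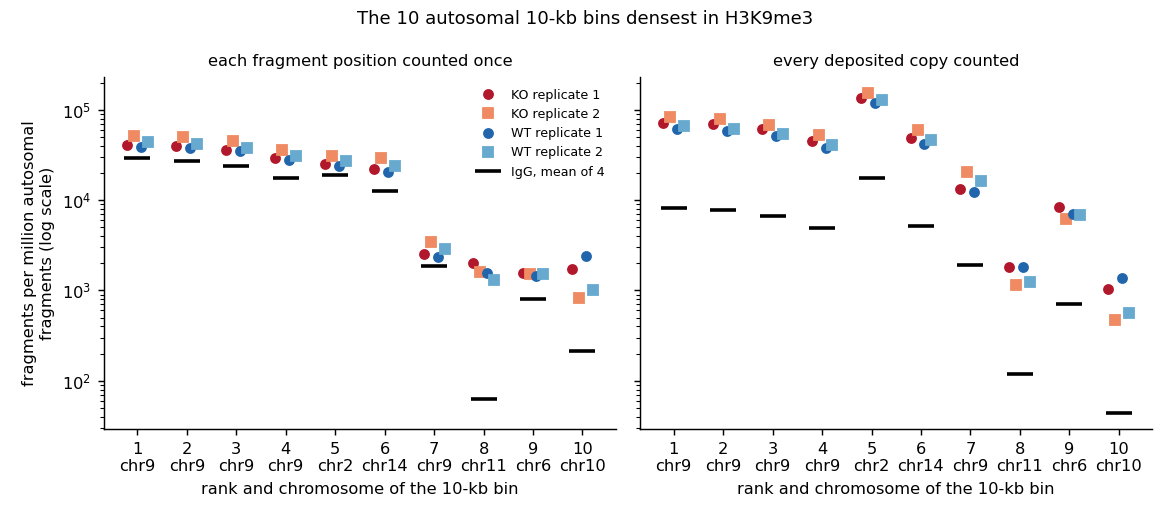
H3K9me3 FPM (log axis) in the 10 densest 10-kb bins of each library, with positions counted once on the left and every deposited copy on the right. Points are single libraries and bars the mean of the 4 IgG libraries. By position the 6 satellite bins hold at least 20500 FPM in each library, and the bin ranked 7 holds at most 3433.

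The densest bin, chr9:3000001-3010000, held 40966 and 51251 FPM in KO and 39009 and 44041 in WT. Its IgG mean was 29187. In the bin on chromosome 2 the values were 25054, 30772, 23809, and 27275, and on chromosome 14 they were 22367, 28896, 20500, and 23789, in the order KO replicates 1 and 2 and WT replicates 1 and 2. KO exceeded WT in both pairs in each of the 6 bins, by 0.071 to 0.28 on the log2 scale, and none was called by limma-voom.

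The next 4 bins were of 2 kinds. At chr9:35300001-35310000, in the lincRNA Gm33838, 98.6% of fragments fell in the 300-bp window printed above, an insertion of the satellite of which 289 bases matched array words. At chr6:103640001-103650000, in an intron of Chl1, which encodes a neural cell adhesion protein, 99.7% fell in 300 bp, with 71 such bases. The fragments of that Chl1 window were short, with medians of 87 and 89 bp in KO and 85 and 87 bp in WT, and IgG had 804 FPM against 1507 for H3K9me3. By contrast, chr11:3190001-3200000 and chr10:3110001-3120000 were filled across their length, with 4.74% and 6.73% of fragments in their densest window. The former lies in Sfi1, a centrosome protein gene, and in Drg1, which encodes a GTPase, and reached 1621 FPM against 62.9 for IgG. The window printed for chromosome 10 is intergenic and holds no word of the satellite, and its bin repeats most closely every 55 bp, with 56.4% of bases identical.

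H3K9me3 was concentrated beyond the satellite bins as well. With those 6 included, the densest 1% of bins, 2463 in number, held 39.0% of distinct fragments on average, the densest 5% 58.6%, the densest 10% 71.5%, and the denser 50% 93.6%. IgG had 16.3% in the same 1%. The median bin of a library held 2 to 4 fragments, and 10685 to 39042 bins with sequence held 0, fewest in both replicate 2 libraries. A bin at the median thus holds too few fragments to show a moderate change.

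The share of fragments in the densest 1% was 40.1% and 40.3% in KO and 37.8% and 37.8% in WT. Both KO libraries lay above both WT libraries, with 40.2% ± 0.129 (SD, n = 2) against 37.8% ± 0.0416 (SD, n = 2). The difference was 2.24 points in pair 1 and 2.49 points in pair 2. The 6 satellite bins are part of this 1%, and the other 2457 bins held 20.7% and 16.1% of the autosomal fragments in KO and 19.5% and 17.1% in WT. Without the 6 bins the groups thus overlapped and the pairs differed in sign, by 1.20 and -1.003 points. As a share of the fragments outside the 6 bins, the differences were 1.80 and -0.33 points, and with every copy counted they were 2.81 and 1.75 points. As a share of all autosomal fragments with every copy counted, they were -0.040 and -1.48 points, lower in KO in both pairs. For the whole 1%, an exact two-sided permutation test gave p = 0.33, the smallest that 2 against 2 libraries allow. Counting every copy widened the difference to 6.24 and 8.52 points. With the denser 5% of bins it was 2.80 and 0.986 points, and with the densest 10% it was 2.06 and -0.618, so that at 10% the pairs differed in sign by position. Counting every copy, the difference at 10% was 4.35 and 4.36 points.

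Across the genome the mark was denser in repeat-rich bins. In the 10% of full bins with the least soft-masked repeat sequence, the median density was 0.0666 FPM per kb, and in the 10% with the most, over 60.4% masked, it was 1.03. The mean of the autosomes was 0.417. Spearman's rho across 239337 bins, a description of places that share libraries and mappability, was 0.563 for the masked share, -0.050 for GC content, and 0.363 for IgG. In the most repetitive class, which includes the 4 satellite bins of chromosome 9, the densities were 2.07 and 1.72 in KO and 2.08 and 1.78 in WT. Without those 4 bins they were 1.46 and 0.964 in KO and 1.496 and 1.13 in WT on the same scale, lower in KO by 0.034 and 0.23 (log2) in the pairs. Scaled to the autosomal total without the 6 satellite bins, KO was lower by 0.015 and 0.17.

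Chromosomes differed in how much of the mark they carried. With the satellite bins left out of the counts and of the scaling total, chromosome 7 had the highest density. It was 0.863 and 0.831 in KO and 0.811 and 0.828 in WT. Chromosome 14 followed with a mean of 0.732 and chromosome 5 with 0.594, while chromosome 2 had the lowest, at 0.265. Of the 2463 densest bins, 661 lay on chromosome 7, 583 on chromosome 14, and 303 on chromosome 5, against 9 on chromosome 15. Within the pairs, KO and WT differed by -0.080 to 0.090 in pair 1 and by -0.13 to 0.095 in pair 2 on the log2 scale over the 19 autosomes.

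**Figure D2:**
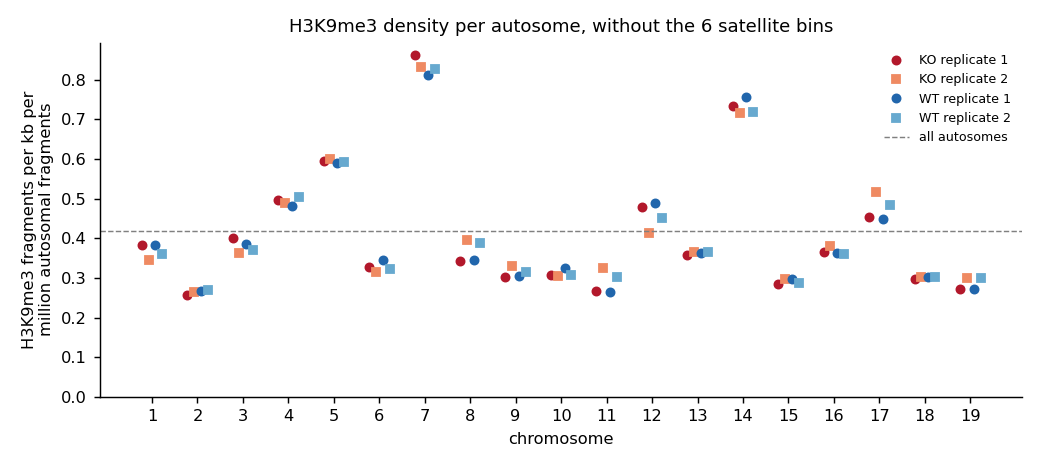
H3K9me3 density (FPM per kb) on each autosome without the 6 satellite bins, a point for each library, scaled without those bins, with the dashed line at the mean of the autosomes. Chromosomes 7, 14, and 5 stand above the others in each library, and KO and WT points of a chromosome lie close together.

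The densest 1-Mb windows beyond the satellites held annotated gene families in some cases and unnamed gene models in others. The window chr5:15000001-16000000, with the Speer genes, a family transcribed in male germ cells, had a mean density of 16.0. The zinc finger cluster of chr4:146000001-147000000, with Zfp600, Zfp987, and Zfp989, had 8.92, at 9.59 and 8.44 in KO and 8.16 and 9.48 in WT. The values of KO and WT overlapped there. Then came chr11:3000001-4000000 at 8.72, chr14:42000001-43000000 at 8.15, where most coding models are unnamed, and chr1:85000001-86000000 at 8.01, where the nuclear body genes Sp100, Sp110, and Sp140 stand beside repeated copies. Vomeronasal receptor genes filled chr7:22000001-23000000, with 5.20.

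Density was higher near the centromeres. Mouse autosomes have their centromere at the low-coordinate end, and the first 100 bins with sequence of each chromosome, without the satellite bins, had a mean density of 2.32, against 0.499 for the last 100. The densities of the ends are scaled to the autosomal total without the 6 satellite bins. As a share of all autosomal fragments, that total was lower in KO by 0.019 and 0.065 (log2) in the pairs. This centromere-proximal value ranged from 0.586 on chromosome 2 to 9.96 on chromosome 11. It was 2.39 and 2.53 in KO and 2.14 and 2.21 in WT, with both KO libraries above both WT libraries and differences of 0.16 and 0.19 (log2) in the pairs. At the telomere-proximal ends the density was 0.512 and 0.462 in KO and 0.533 and 0.490 in WT, lower in KO in both pairs, by 0.060 and 0.085. Bins that share words with the chromosome 9 array remain among the centromere-proximal bins. In the densest windows of chr11:3100001-3110000 and chr12:3100001-3110000, 32.2% and 42.2% of 12-base words were array words. These bins held 1190 and 498 FPM of H3K9me3 and 153 and 577 of IgG. The end values were not computed without such bins, nor for IgG.

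Protein-coding gene bodies held less of the mark than their share of the genome. Protein-coding genes span 41.3% of autosomal sequence and held 33.8% of fragments, and intergenic sequence spans 51.6% and held 52.7%. The coding share includes gene models on satellite sequence, such as Gm10717 and Gm21738. Gm10717 alone counted from 95182 (WT replicate 2) to 119746 (KO replicate 2) per library. The share without such models was not computed, so 33.8% does not give the level of the other coding genes. Pseudogenes held 2.04% of fragments on 0.858% of the sequence, which is 2.38-fold, and lncRNA and unverified transcripts 11.5% on 6.20%, which is 1.85-fold and includes Gm26870 on the chromosome 9 array. For IgG the same ratios were 1.22 and 1.44.

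The gene families known to be built from tandem copies were unequal. Density of a gene body is given in FPM per kb, where the median of all 20807 protein-coding genes was 0.101 and 9.81% of them exceeded the genome mean. Highest were the Speer genes, with a median of 1.35 over 10 genes, the clustered protocadherins, which give neurons their cell surface identity, with 1.23 over 57, and the Skint genes, immunoglobulin-like genes of skin and thymus, with 1.23 over 11. The IgG median was 1.73 for the Speer genes, above their H3K9me3 median, 0.286 for the protocadherins, and 0.431 for the Skint genes. Of the 57 protocadherins 54 exceeded the genome mean. Many of the alpha and gamma protocadherin bodies overlap and share fragments, so they are not independent.

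Receptor families of the nose differed from each other. Vomeronasal receptors had a median of 0.643, and 196 of 326 exceeded the genome mean. Olfactory receptors had 0.099, near the median of all coding genes, with 160 of 1088 above the genome mean. Zinc finger genes were spread widely: their median was 0.151, 124 of 452 exceeded the genome mean, and their summed fragments over summed length gave 0.632, with Zfp600 and Zfp978 among the densest. IgG medians were 0.254 for zinc finger genes, 0.167 for olfactory receptors, and 0.221 for all coding genes, each above the H3K9me3 median. For vomeronasal receptors the IgG median was 0.213, below it.

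**Figure D3:**
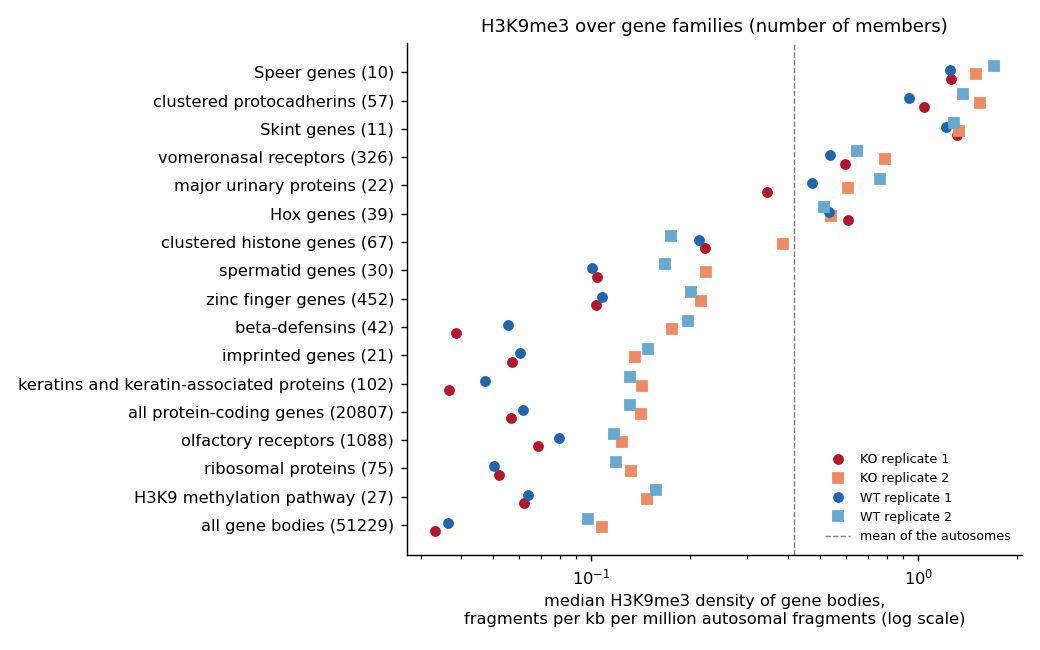
Median H3K9me3 density of the gene bodies of each list (log axis, FPM per kb), with a point for each library and the number of members in parentheses. Speer, protocadherin, and Skint genes lie above the mean of the autosomes (dashed line) in each library, and for all protein-coding genes both replicate 2 libraries lie above both replicate 1 libraries.

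Major urinary proteins, pheromone carriers, had a median of 0.614 over 22 genes (IgG 0.371). Their summed fragments over summed length gave 0.637 for H3K9me3 and 0.654 for IgG. Hox genes, which pattern the body axis, had a median of 0.551 over 39. The Hox genes are Polycomb targets, and their median H3K27me3 density was 24.7. Lower medians were found for clustered histone genes (0.338), spermatid genes (0.175), beta-defensins (0.121), imprinted genes (0.112), keratins and their associated proteins (0.106), ribosomal proteins (0.0989), and the 27 genes of the H3K9 methylation pathway itself (0.0957). Of these, IgG had the higher median for spermatid genes (0.459), imprinted genes (0.174), and the methylation pathway (0.344), and the lower for the others. For clustered histone genes, keratins, and ribosomal proteins the IgG median was 0, so it gives no background level. As summed fragments over summed length, IgG exceeded H3K9me3 for keratins (0.276 against 0.182), ribosomal proteins (0.302 against 0.123), and beta-defensins (0.282 against 0.277). It was lower for clustered histone genes (0.273 against 0.374). In sparse genes replicates 1 and 2 stood apart: all coding genes had medians of 0.0566 and 0.142 in KO and 0.0616 and 0.131 in WT.

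At single genes the families had clear peaks. Zfp600, on chromosome 4, had 19.8 and 13.9 in KO and 17.7 and 17.4 in WT, and Zfp978 had 19.2 and 14.5 against 16.7 and 17.3. Zinc finger proteins of this kind, with a KRAB domain, recruit H3K9 methylation to transposons. In neither gene did the KO values lie on a single side of the WT values.

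Speer4c had 10.5 and 17.4 in KO and 15.8 and 19.6 in WT, and Speer4d had 10.2 and 15.8 against 13.6 and 17.5. Both lay lower in KO in each pair, while the groups overlapped. IgG had 8.47 at Speer4c and 8.72 at Speer4d, not far below the values of KO replicate 1. Speer4c also carried H3K4me3, at 152 FPM per kb, so both marks were found over copies that short reads may not separate.

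Among the protocadherins, Pcdhb9 had 3.55 and 4.505 in KO and 2.44 and 3.23 in WT, and Pcdhb18 had 3.003 and 3.38 against 2.06 and 2.78. Both KO libraries lay above both WT libraries in these genes, on 28 to 60 fragments each. Neither was called. The densest Skint genes were Skint11, with 2.56 and 1.66 in KO and 2.23 and 1.79 in WT, and Skint5, with 1.81 and 1.76 in KO and 1.67 and 1.66 in WT on 2714 to 3746 fragments. The Skint5 values were thus higher in KO in both pairs, by 0.12 and 0.089 on the log2 scale, while those of Skint11 differed in sign between the pairs, by 0.20 and -0.10.

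Nose receptors showed dense single genes, some of them on few fragments. Olfr178 had 4.84 and 4.38 in KO and 3.96 and 3.73 in WT, and Olfr461 had a mean of 3.98. The vomeronasal receptors Vmn1r132 and Vmn1r158 had means of 6.08 and 5.80 on 14 to 22 fragments a library. Both KO libraries lay above both WT libraries in the olfactory receptor genes, the KO and WT values overlapped in the vomeronasal ones, and none of the 4 genes was called.

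In the remaining lists the densest members were Defb35 (2.18) and Defb39 (1.29) of the beta-defensins, which are antimicrobial peptides, Mup18 (1.05) and Mup6 (0.822), and the hair protein genes Krtap21-1 (5.30) and Krtap6-5 (4.94). The densest Hox genes were Hoxc12 (0.947) and Hoxd11 (0.943), and the densest imprinted genes Magel2 (0.458) and Snrpn (0.377). Several of these lay near or below IgG: it had 1.46 at Mup18, 0.638 at Mup6, 1.20 at Defb39, 0.779 at Hoxc12, 0.774 at Hoxd11, and 0.624 at Magel2. Among the writers and partners of the mark, Morc2a, which works with the HUSH silencing complex, had 1.79 and 1.99 in KO and 1.47 and 1.47 in WT, and Trim28, the corepressor that binds KRAB zinc finger proteins, had a mean of 0.968. Morc2a lies in the dense start of chromosome 11. Rpl10l (0.318), Pgk2 (0.744), Tssk2 (0.445), Hist1h2ba (0.956), and Hist1h2bk (0.886) held 0 to 9 fragments in each library, and Tssk2 had an IgG density of 1.04. Fragments were few as well at Krtap21-1 (5 to 23 a library), Krtap6-5 (7 to 13), Hoxc12 (2 to 10), Magel2 (5 to 12), Mup18 (7 to 23), and Defb35 (11 to 27).

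The 10 densest protein-coding gene models of at least 1 kb were all models on satellite sequence: Gm21738 on chromosome 14, with 6566.5, and Gm10718, Gm10722, Gm17535, Gm10719, Gm10721, Gm11168, Gm10717, Gm10720, and Gm10715 on chromosome 9, with 3283 to 5649. Their IgG densities were 1939 to 5071. Gm21738 had 6140 and 7925 in KO and 5660 and 6541 in WT, with KO replicate 1 below WT replicate 2.

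Whether loss of H2A.B moved heterochromatin was tested over all bins, windows, and gene bodies with limma-voom, with KO against WT, library size as the autosomal total, and Benjamini-Hochberg adjusted p under 0.05. Nearly no place was called. Of 155669 10-kb bins with at least 10 fragments, 1 was called (0.000642%), and of 2413 1-Mb windows 0 (0%). Of 23342 gene bodies 0 were called (0%). At an unadjusted p under 0.05 there were 1053 bins, 0 windows, and 12 gene bodies, and limma-trend called 0 in each. Without KO replicate 1, limma-voom called 9 bins and 24 gene bodies. With 2 animals a genotype, limma draws the variance of each place toward a value shared by all places tested. These p-values thus measure little of the spread between the 2 animals at a single place.

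The single bin called was chr12:69650001-69660000, in Sos2, which encodes a Ras exchange factor. It held 11 and 14 fragments in KO and 243 and 17 in WT (log2 difference -2.48, SE 0.472, adjusted p = 0.0238 by limma-voom). Only WT replicate 1 was high there, and WT replicate 2 lay near the KO libraries. With the pair as a replicate block it was not called, and without WT replicate 1 its log2 difference was -0.66.

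The difference between replicates was shared by the genotypes. Over 2403 1-Mb windows, the difference between replicates 1 and 2 in KO had a Spearman's rho of 0.931 with the same difference in WT, across windows that share these libraries. The difference between KO and WT in pair 1 had a rho of 0.210 with that in pair 2. Scaling to the autosomal total put the median window at -0.13 (log2, KO minus WT), and scaling by the median of ratios put it at -0.0145, so that shift has to be set beside the directions that follow. In 1451 of 2403 windows KO was lower in both pairs, and in 243 it was higher in both.

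With the sibling pair as a replicate block the 1-Mb windows changed most. By limma-voom 345 of 2413 windows (14.3%) were then called, 40 higher and 305 lower in KO. With the median of ratios as scaling, an alternative added after the data were seen, 93 were called, 90 higher and 3 lower. The 40 higher windows and 3 lower windows were common to both scalings. The remaining lower calls were made only with scaling by the total. Of the 40 higher windows, 6 lay on chromosome 5, which spans 147920 of the 2395900 kb of autosomal sequence, and 4 each on chromosomes 7, 10, and 16. The 40 were denser than the median window (0.680 against 0.182) and richer in GC (44.3% against 41.7%). Windows with more fragments are called more easily, so nothing particular to the 40 is read from these values.

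Examples from these windows, chosen after their values were seen, are given by their density. At chr10:120000001-121000000, with Hmga2, a chromatin architecture gene, the density was 0.204 and 0.340 in KO and 0.173 and 0.235 in WT (log2 0.39, SE 0.0813, adjusted p = 0.00277 by limma-voom with the block). At chr12:54000001-55000000, with the transcription factor gene Npas3, it was 0.263 and 0.466 in KO and 0.196 and 0.367 in WT, which is 0.38 on the log2 scale. In both windows the groups overlapped and each pair pointed upward. Denser signal was seen at chr8:34000001-35000000, with the phosphatase gene Dusp4 and the tankyrase gene Tnks, with 1.07 and 1.80 in KO and 0.794 and 1.39 in WT, and in the next window with 0.607 and 1.01 against 0.477 and 0.784. At chr16:88000001-89000000, a cluster of hair protein genes with Krtap24-1 and Krtap14, it was 0.908 and 1.27 in KO and 0.725 and 0.929 in WT.

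The lower windows were chr2:176000001-177000000, chr10:98000001-99000000, and chr12:69000001-70000000. The first is a cluster of zinc finger genes with Zfp967 and Zfp973, and it had 0.311 and 0.224 in KO and 0.411 and 0.311 in WT (log2 -0.44, SE 0.0816, adjusted p = 0.000203 by limma-voom with the block). Both pairs differed alike, by -0.40 and -0.47. At chr10:98000001-99000000, with the calcium pump gene Atp2b1, the densities were 0.172 and 0.129 in KO and 0.224 and 0.171 in WT. The third window holds the Sos2 bin, and its difference came from pair 1 (-0.98), with 0.0129 in pair 2.

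Gene bodies with the block gave 13 calls of 23342 (0.0557%), 11 higher and 2 lower in KO, and with median-of-ratios scaling 6. Of the 13, only the 4 models at the ribosomal RNA locus were called with both scalings, and the other 9 had an adjusted p of 0.92 by limma-voom with the block and median-of-ratios scaling. Of the 11, 4 were models on satellite sequence (Gm26870, Gm21738, Gm10717, Gm10801), and Sfi1 and Drg1 share the dense start of chromosome 11. Sfi1 had 71.2 and 90.6 in KO and 62.1 and 72.3 in WT (blocked log2 0.26, SE 0.0387, adjusted p = 0.0128 by limma-voom), and Drg1 had 31.8 and 26.0 against 24.3 and 21.6. Each was higher in KO in both pairs by position, but with every copy counted the differences turned, to -0.12 for Sfi1 and -0.060 for Drg1. Dok5, an adaptor of tyrosine kinases, had 1.35 and 2.14 in KO and 0.909 and 1.52 in WT on 506 to 1060 fragments. Its unblocked log2 difference was 0.54, and it was 0.11 with every copy counted, 0.22 without KO replicate 2, and 0.15 without WT replicate 1. The 2 lower calls, 2700054A10Rik and AC174800.1, overlap on chromosome 17 and share most of their fragments.

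The other 4 higher calls, Gm26917, CT010467.1, AY036118, and Gm42418, lie at the ribosomal RNA copy of chr17:39840001-39850000. That bin held 0.0546% and 0.0410% of autosomal fragments in KO and 0.0217% and 0.0282% in WT, on 2163, 1371, 818, and 884 fragments. Both KO libraries lay above both WT libraries, by 1.33 and 0.54 on the log2 scale, and by 1.03 and 0.19 with every copy counted. H3K27me3 libraries had 0.257%, 0.485%, 0.238%, and 0.407% of their fragments in that bin, for KO replicates 1 and 2 and WT replicates 1 and 2. IgG libraries had 0.0174%, 0.00456%, 0.0163%, and 0.0207% there. With every copy counted, in the same order, IgG had 0.0301%, 0.00854%, 0.0319%, and 0.0356%. H3K9me3 had 0.0469%, 0.0286%, 0.0230%, and 0.0250%, so in both WT animals IgG was the higher. Most copies of the ribosomal RNA genes are absent from the assembly, so reads of those copies can be placed here.

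No member of the 15 gene lists was called, with or without the block. The median difference over the 57 protocadherins was 0.24 (0.26 in pair 1 and 0.20 in pair 2), and 49 of 57 were higher in KO in both pairs, while over all coding genes tested the medians were -0.076 and 0.069, and 3864 of 16169 were higher in both. The major urinary proteins had medians of -0.39 and -0.33, with 11 of 20 tested genes lower in both pairs, next to 4519 of all 16169. Of 412 zinc finger genes tested, 117 were higher and 95 lower in both pairs, and of 306 vomeronasal receptors 94 were higher and 60 lower. Members of these families lie side by side and may share fragments, and nothing particular to a list is read from these counts.

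Fragment size was compared next, since nucleosomes that unwrap give micrococcal nuclease shorter fragments. Of the autosomal fragments, 18.1% and 29.6% in KO and 13.3% and 24.1% in WT were small (up to 120 bp), and large ones (150 bp or more) came to 77.5% and 63.1% in KO and 81.7% and 68.9% in WT. The log2 ratio of small to large was -2.10 and -1.09 in KO and -2.62 and -1.52 in WT. KO was higher in each pair, by 0.52 and 0.43, but both replicate 2 libraries lay above both replicate 1 libraries, so the genotypes overlapped. The mean difference of 0.47 gave p = 0.667 in an exact two-sided permutation test. With the pair as a replicate block, the exact test gave p = 0.5, which is the smallest that 2 pairs allow. The unpaired difference was -0.030 without KO replicate 2 and -0.077 without WT replicate 1, where the libraries left over are unbalanced between the replicate numbers.

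IgG libraries of the same animals moved the same way. Their autosomal log2 ratio was 0.605 and 0.393 in KO and 0.217 and -0.0784 in WT, a difference of 0.39 in pair 1 and 0.47 in pair 2. With the IgG difference of each pair taken off, 0.13 and -0.045 remained for H3K9me3. With every copy counted, the IgG differences were 1.17 and 0.51, larger than the 0.50 and 0.29 of H3K9me3 in both pairs. Whether IgG and H3K9me3 share a cause was not tested.

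**Figure D4:**
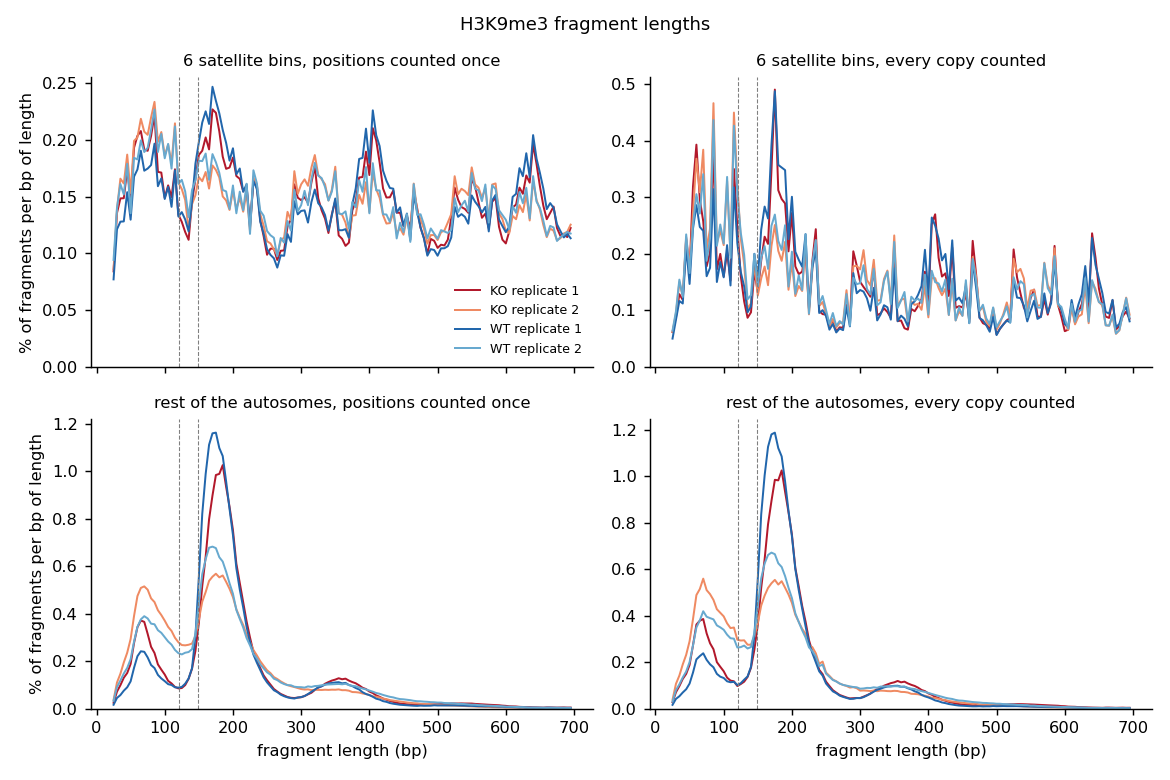
Fragment lengths of the 4 H3K9me3 libraries as the percent of fragments per bp of length, in the 6 satellite bins (top) and the rest of the autosomes (bottom), by position (left) and by copy (right). Dashed lines mark the limits of small and large fragments. Outside the satellites both replicate 2 libraries hold more small fragments than both replicate 1 libraries, and over the satellites the 4 curves lie closer and run on past 250 bp.

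The satellite arrays had a length profile of their own. In the 6 bins the median distinct fragment measured 342 and 336 bp in KO and 350 and 337 bp in WT, and 62.1%, 62.2%, 62.3%, and 62.0% of fragments exceeded 250 bp. In the rest of the autosomes the medians were 184 and 167 bp in KO and 181 and 176 bp in WT, with 15.8% to 21.8% over 250 bp. The share of long fragments thus differed by under 1 point among the 4 libraries over the satellites. The chromosome 2 bin was an exception among the 6, with medians of 177 and 178 bp in KO and 178 and 174 bp in WT. Long medians were also found outside the satellites. The bin at chr10:3110001-3120000 had 333 and 345 bp in KO and 334 and 330 bp in WT. Counted by copy, 52.8% to 53.7% of satellite fragments exceeded 250 bp.

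The size difference between KO and WT depended on where fragments lay. In the satellite bins the small-to-large ratio (log2) was -2.26 and -2.08 in KO and -2.42 and -2.15 in WT, which are pair differences of 0.15 and 0.070. In the rest of the autosomes it was -2.06 and -0.817 in KO and -2.66 and -1.37 in WT, with differences of 0.61 and 0.55. By density, the differences were 0.40 and 0.48 in the other bins of the top 0.1%, 0.66 and 0.58 from there to the top 1%, 0.69 and 0.62 to the top 5%, and 0.74 and 0.62 to the top 10%. They were smaller again below, at 0.60 and 0.54 to the top 25% and 0.49 and 0.40 in the sparser bins under the median. In each of these classes KO was higher in both pairs. Counting every copy gave 0.23 and 0.092 in the satellite bins and 0.68 and 0.53 in the rest.

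The IgG libraries, at low depth, were compared in the same classes. In the satellite bins its pair differences were 0.48 and 0.18, and in the rest of the autosomes 0.59 and 0.46. Between the top 1% and the top 5% they were 1.14 and 0.51, and in the sparser bins under the median 0.41 and 0.49. In pair 1 the IgG difference was lowest from the top 25% to the top 50%, at 0.37, and in pair 2 it was lowest in the satellite bins. With every copy counted, the IgG differences were lowest in the satellite bins in both pairs, at 0.51 and 0.26, as were those of H3K9me3. Their part in the H3K9me3 differences was not tested.

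**Figure D5:**
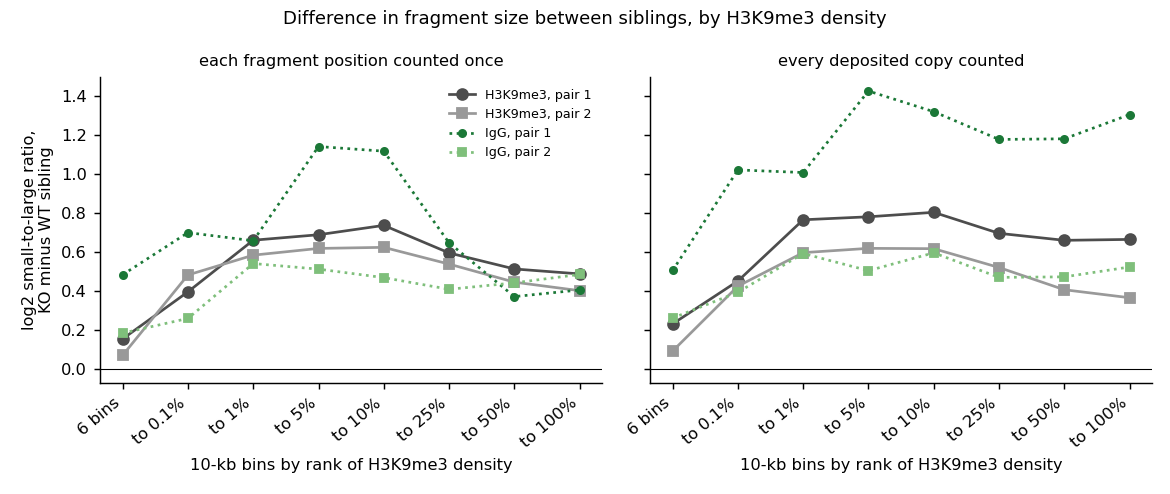
Difference between KO and WT siblings in the small-to-large ratio (log2), by class of H3K9me3 density, from the 6 satellite bins on the left to the sparser bins below the median on the right, with each class reaching from the previous limit to the percentage shown. Solid lines are H3K9me3 and dotted lines IgG, by pair, with positions counted once (left) and every copy (right). All points lie above 0, and those of H3K9me3 are lowest in the satellite bins.

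The higher ratio in KO was found nearly everywhere. In 2345 of 2403 1-Mb windows (97.6%) both KO siblings exceeded their WT siblings, and in 0 windows both fell below. The median difference over windows was 0.62 in pair 1 and 0.53 in pair 2. Across windows, the differences of the pairs had a Spearman's rho of 0.070, a weak relation among windows that share these libraries.

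Where the difference departed from that of the rest of the library was tested with limma on 47245 bins with at least 10 small and 10 large fragments, with each library centered on its median. The fit called 20 bins (0.0423%), and in all 20 the KO to WT difference was below that of the library. All 6 satellite bins were among them, 19 of the 20 were in the densest 0.1% of bins, and all were in the densest 1%. Bins with more fragments are called more easily in this weighted fit, so nothing is read from the density of the called bins. The centered differences of the 20 bins ran from -0.95 to -0.46. Before centering they were -0.47 to 0.19 in pair 1 and -0.37 to 0.13 in pair 2, against medians of 0.62 and 0.57 over the bins tested, so that KO exceeded WT by less there than in the tested bins as a whole, or lay below it.

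At chr9:3000001-3010000 the log2 ratio was -2.57 and -2.34 in KO and -2.76 and -2.44 in WT (centered difference -0.47, SE 0.0129, adjusted p = 1.12e-282 by limma). At chr9:3020001-3030000 it was -2.59 and -2.35 in KO and -2.77 and -2.44 in WT (centered -0.48). At chr2:98660001-98670000 it was -0.764 and -0.725 in KO and -0.851 and -0.703 in WT (centered -0.58). Those p-values follow from weights by counting error in bins with 85557 to 171299 fragments a library, which leave out most of the spread between animals, and without weights 0 bins were called, with 2125 at an unadjusted p under 0.05. With the pair as a replicate block 28 bins were called (0.0593%), including all 20. Without KO replicate 2, or without WT replicate 1, 0 bins were called. In 1-Mb windows 0 of 2413 were called without the block (55 at an unadjusted p under 0.05) and 23 with it, 4 above and 19 below the library median.

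The other called bins included the insertion in Gm33838, the Chl1 bin, where the log2 ratio was 1.78 and 1.71 in KO and 1.75 and 1.75 in WT, and chr12:3100001-3120000 beside the centromere of chromosome 12, where the densest windows share 12-base words with the array. The tandem array at chr10:3110001-3120000 was another, with -2.24 and -2.35 in KO and -2.28 and -2.10 in WT. Its coverage was 1733 and 822 FPM in KO and 2391 and 1004 in WT, lower in KO in both pairs. Bins in Tmem125, Mdga2, Smo, and Gm5626 and in the overlapping lincRNAs 2700054A10Rik and AC174800.1 were called as well.

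Summed over the genes of a list, small fragments were relatively more frequent in KO in both pairs for each of the 15 lists, next to 0.40 and 0.33 (log2) for all coding genes. Differences were 0.58 and 0.80 for protocadherins, 0.59 and 0.61 for vomeronasal receptors, 0.59 and 0.56 for zinc finger genes, and 0.58 and 0.56 for olfactory receptors. Hox genes had 1.24 and 0.39 and clustered histone genes 0.29 and 0.10. The value for all coding genes includes the models on satellite sequence.

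The modal length of mono-nucleosomal fragments, above 120 and up to 250 bp, was 181 and 172 bp in KO and 171 and 171 bp in WT. Both KO values exceeded both WT values, by 10 bp in pair 1 and 1 bp in pair 2 (exact two-sided permutation test, p = 0.33). In the autosomes without the satellite bins the modes were 181 and 171 bp in KO and 171 and 171 bp in WT, so that pair 2 did not differ there. Over the satellite bins they were 174 and 174 bp in KO and 174 and 158 bp in WT. With a running mean over 21 bp in place of 11 bp, the autosomal modes were 182 and 176 bp in KO and 175 and 171 bp in WT, and with every copy counted they were 178 and 175 bp against 172 and 172 bp.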

How the data were processed

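Spermatid H3K9me3 libraries of 2 KO and 2 WT males were read from lists of fragment positions and lengths that the authors deposited, 1 line a fragment, with no normalization, after Bowtie2 alignment to mm10 (version 2.3.4.3 in the submitters' processing notes). The methods state removal of duplicates, but the lists held identical lines, so each chromosome, start, and end was counted once here. How reads with several equal positions were treated is not given in the sources used here.

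Fragments on chromosomes 1 to 19 were assigned by midpoint to 10-kb bins, 1-Mb windows, and gene bodies of GENCODE vM21, and scaled to the autosomal total of the library. Bins, windows, and gene bodies with at least 10 fragments over the 4 libraries were tested in R 4.3.3 with limma 3.58.1 (voom), without a block, with Benjamini-Hochberg adjustment. Small-to-large ratios (pseudocount 0.5) were tested by limma with weights from the counting variance, in bins that held no fewer than 10 fragments of each size class. Scripts were tested on simulated data. Other values were computed with Python 3.11.15, NumPy 2.4.6, SciPy 1.17.1, and pandas 2.3.3. Same-numbered libraries were taken as sibling pairs. Their deviations from the genotype mean had a Pearson's r of 0.417 across 155669 bins. A shared date could give this as well, so the value cannot show that they are siblings.

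Named were the 10 densest coding gene bodies of at least 1 kb, the 2 densest members of each list (1 of them is not reported here), the 10 densest bins, and up to 3 called genes or bins per direction that changed alike in both pairs. Others are named as chosen after their values were seen, among them the gene bodies called with the block and the remaining called bins. The members and lists were chosen with earlier results of these data known. Alternatives covered scaling, the block, filters, bin size, copies, size limits, and leaving out each library.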

Additional observations from a re-analysis of the deposited data

How the results depend on the processing

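Coverage calls depended on the pairing. The 1 called 10-kb bin fell to 0 with median-of-ratios scaling, limma-trend, a replicate block by sibling pair, no filter, or 100-kb bins, and to 0 to 9 with 1 library left out. With median-of-ratios scaling and the block together, chosen after the data were seen, 19 bins were called, 15 higher and 4 lower. For 1-Mb windows the 0 calls became 345 with the block and 93 with both, and 0 to 0 with 1 library left out. For gene bodies they became 13 and 6, and 0 to 24, with 24 lacking KO replicate 1. The 20 ratio bins became 0 without weights, 0 in 1-Mb windows (23 with the block added, chosen after the data were seen), and 11, all higher in KO, without centering, and 0 to 33 with 1 library left out (0 when KO replicate 2 or WT replicate 1 was the one removed). With 1 library left out, a lone sample was assumed to vary like the other group.

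The difference in the log2 ratio ranged from -0.077 to 1.02 with 1 library left out, being -0.030 without KO replicate 2. The share in the densest 1% ranged from 2.27 to 2.46 points and the modal length from 1 to 10 bp. Centered log2 differences, KO minus WT, ranged from -1.15 to 0.016 at chr2:98660001, from -0.96 to 0.059 at chr9:3000001, and from -0.96 to 0.044 at chr9:3020001, each above 0 without KO replicate 2. With every copy counted, Drg1 was at -0.060 and Sfi1 at -0.12. The cause of these changes was not tested. Sparse bins, few IgG fragments, and reads shared among repeat copies limit what these libraries can show.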
